A study of Xenopus laevis with 6 samples.

Results

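Hemoglobin genes of Xenopus laevis were followed in whole stage 35 embryos, as 10 genes of alpha and beta type that held the largest share of hemoglobin transcripts. The product descriptions came with the authors' adjusted values, described below, which cover 24661 genes. Of these, 17 named a hemoglobin or globin subunit other than cytoglobin, neuroglobin or myoglobin. The 10 with the highest mean level over all samples were taken. Hemoglobin genes absent from the adjusted values could not be taken. The count table lists 42638 genes in all. The members were chosen by this mean level, so their levels are given as a description without a test, while the difference between media and the spread between samples played no part in the choice. The last gene taken was hbe1.L with a mean of 38.3 CPM (counts of a gene per 1000000 counts of its sample), and the first left out was LOC108702026 with 34.1 CPM.

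The embryos were wild type and were fertilized in vitro. They were reared at 14 °C in MMR, the salt solution known as Marc's Modified Ringer's, at first at a strength of 0.1X. The study matched their stage to day 7 at 14 °C of tissue explants taken at stage 9. A control group remained in 0.1X MMR throughout, and the other group was moved at stage 9 into 0.75X MMR, the saltier medium in which the study's tissue explants were raised. Each medium had 3 samples, and a sample pooled 10 complete embryos, so embryos cannot be told apart within it. The study describes its replicates as coming from separate batches, but neither it nor the labels say how the numbered pools relate, so a p-value here measures the spread between these pools. Total RNA without ribosomal RNA was sequenced, and the counts assigned to genes summed to between 5024957 and 7045215 per sample. These totals, called depth here, are not the number of reads sequenced. The lowest total was that of 0.1X MMR sample 3, the sample that also sets the main pattern below.

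Hemoglobin carries oxygen in red blood cells as an assembly of alpha-type and beta-type globin chains, each holding a heme group with an iron atom. In frog embryos the first red cells form in the ventral blood island and enter the circulation at about the tailbud stages. Xenopus uses larval globin genes in the tadpole and exchanges them for adult globin genes at metamorphosis. The genes of both chains lie together in clusters, and X. laevis carries a cluster on each of its subgenomes, written L and S. In RNA from whole embryos, fewer red cells and less globin RNA per red cell cannot be told apart.

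On chromosome 9_10L of the genome version 10.1, the beta-type genes with a matching product spanned 96019936 to 96073691 and the alpha-type genes 96317641 to 96437216. On chromosome 9_10S the beta-type genes spanned 83565553 to 83616401 and the alpha-type genes 83791751 to 83874239. The 10 members were spread over all 4 of these blocks, with 3 alpha-type and 2 beta-type genes on each chromosome. No sequence of these genes is shown, since only their positions and names were used.

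**Figure D1:**
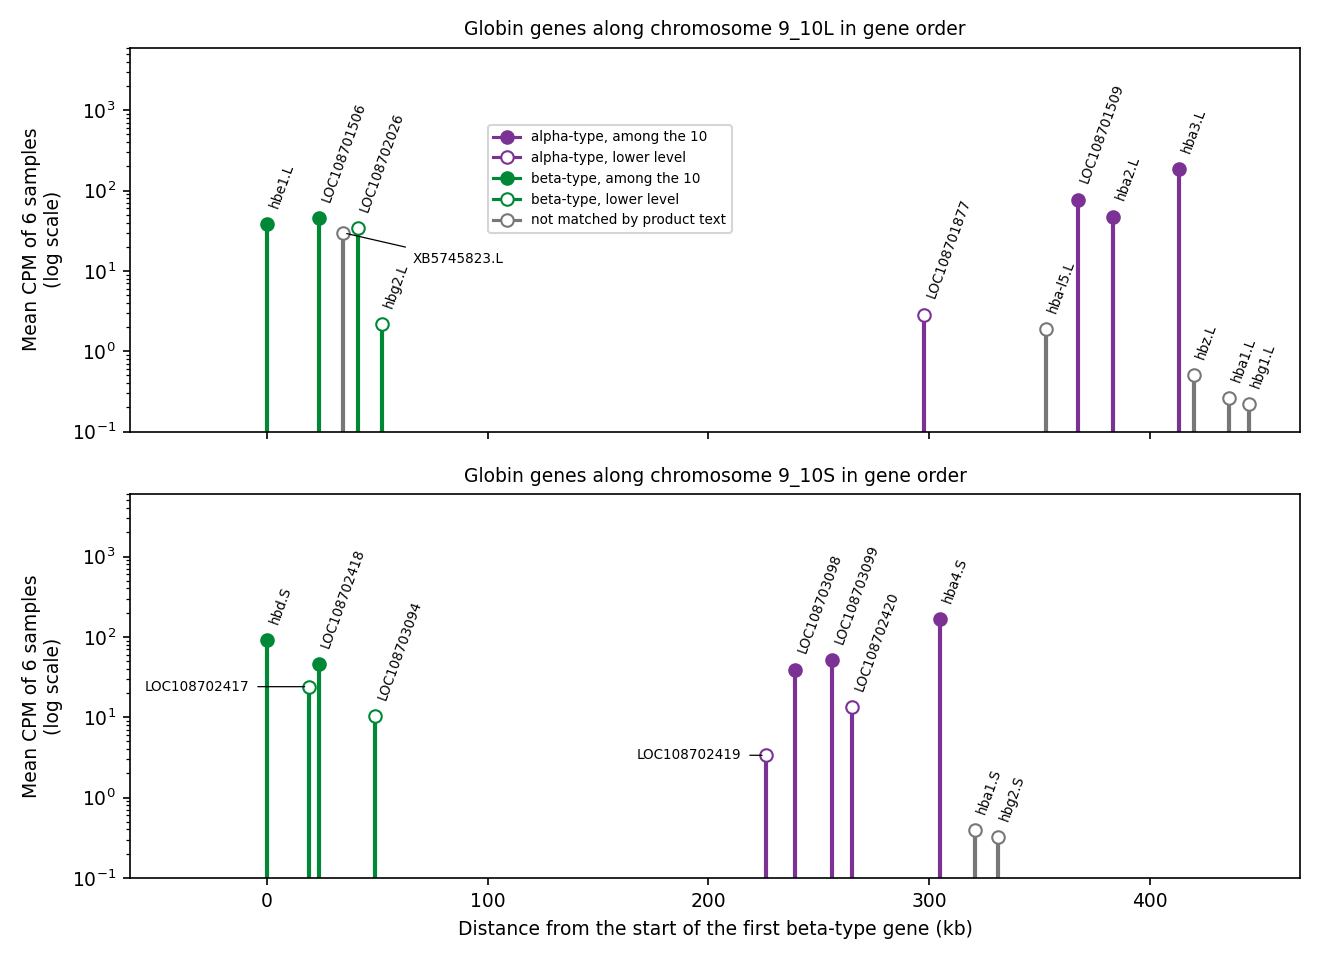
Mean level of the globin genes over the 6 samples (CPM, log scale) against their distance from the first beta-type gene of the cluster (kb), on chromosome 9_10L above and 9_10S below. Filled points are the 10 members, open points are lower or unmatched genes. The members sat in both the beta-type and the alpha-type block of each chromosome, and the genes at the far right of each cluster, hba1 and hbg1 or hbg2, were below 1 CPM.

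The levels of the globin genes of the adult frog were set beside those of the members. In the adult, alpha-type chains come from hba1 genes and beta-type chains from hbg1.L and hbg2.S in the same clusters. The summed level of hba1.L, hba1.S, hbg1.L, hbg2.S and the alpha-type gene hbz.L lay between 0.995 and 2.84 CPM in the 6 samples. The sum of the 10 members lay between 495 and 871 CPM. These 5 genes were absent from the authors' adjusted values, so the rule could not take them. Single values of these 5 genes were mostly at or under 3 counts, a floor that equals 0.426 to 0.597 CPM depending on depth. The product texts of the members do not themselves say larval, except that hba4.S is described as alpha-T4 globin, a tadpole name. The adult genes were at or near the floor. The members were picked as the highest genes, so their higher level is a description and no check of the label larval.

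The alpha-type members were led by a gene on each chromosome. The alpha-globin gene hba3.L (9_10L, 96433417 to 96437216) was measured at 193, 190 and 119 CPM in 0.1X MMR, against 206, 201 and 202 CPM in 0.75X MMR. The alpha-globin gene hba4.S (9_10S, 83870626 to 83874239) was measured at 181, 166 and 109 CPM in 0.1X MMR, against 183, 193 and 163 CPM in 0.75X MMR. Both genes were lowest in 0.1X MMR sample 3. For hba3.L all 3 samples of 0.75X MMR lay above all 3 of 0.1X MMR, although samples 1 and 2 of 0.1X MMR were close below them, and for hba4.S the media overlapped.

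The other alpha-type members were 3 genes described as alpha-3-like and hba2.L. LOC108701509 (9_10L, 96387243 to 96389386) was at 92.4, 76.6 and 46.5 CPM in 0.1X MMR, against 83.9, 87.3 and 77.8 CPM in 0.75X MMR. LOC108703099 (9_10S, 83821634 to 83823707) was at 53.9, 65.0 and 34.6 CPM in 0.1X MMR, against 44.7, 55.5 and 53.8 CPM in 0.75X MMR. In both genes the media overlapped and the lowest pool was 0.1X MMR sample 3. The alpha-globin gene hba2.L (9_10L, 96403437 to 96405283) was at 47.8, 50.7 and 26.2 CPM in 0.1X MMR, against 56.8, 54.0 and 49.6 CPM in 0.75X MMR. LOC108703098 (9_10S, 83804823 to 83806453) was at 40.8, 43.5 and 23.5 CPM in 0.1X MMR, against 41.1, 37.4 and 48.4 CPM in 0.75X MMR. Again the same pool was lowest and the media overlapped.

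Among the beta-type members, hbd.S was highest. This beta-globin gene (9_10S, 83565553 to 83567680) was at 108, 99.6 and 56.7 CPM in 0.1X MMR, against 90.4, 94.8 and 93.3 CPM in 0.75X MMR. The beta-2 gene LOC108702418 (9_10S, 83588945 to 83590175) was at 54.6, 48.7 and 29.0 CPM in 0.1X MMR, against 47.8, 54.3 and 43.4 CPM in 0.75X MMR. In hbd.S and LOC108702418 the highest pool was 0.1X MMR sample 1 and the lowest 0.1X MMR sample 3. The beta-2 gene LOC108701506 (9_10L, 96043598 to 96044832) was at 51.7, 43.9 and 27.5 CPM in 0.1X MMR, against 46.5, 52.2 and 50.8 CPM in 0.75X MMR. The beta-globin gene hbe1.L (9_10L, 96019936 to 96021732) was at 45.8, 43.0 and 23.7 CPM in 0.1X MMR, against 43.8, 41.0 and 32.7 CPM in 0.75X MMR. In all 4 beta-type members the media overlapped.

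**Figure D2:**
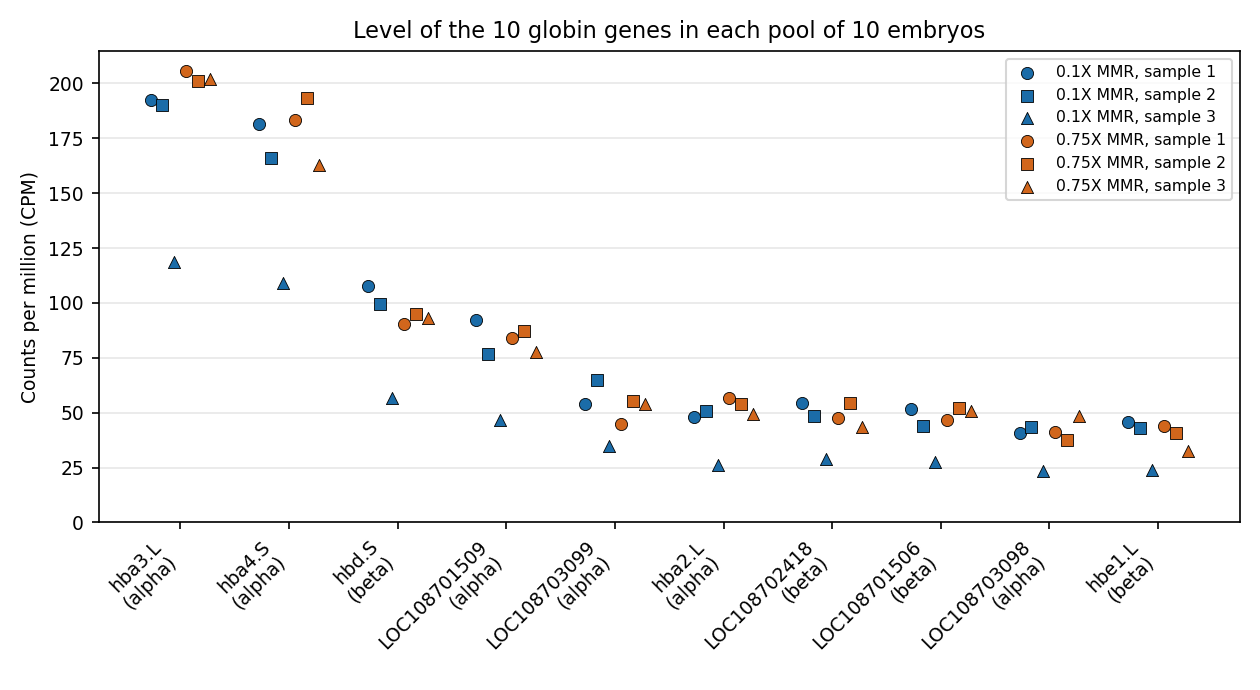
Level of each of the 10 members in CPM (y axis) in each pool of 10 embryos, with 0.1X MMR in blue and 0.75X MMR in orange and a marker shape for the sample number. The blue triangle, 0.1X MMR sample 3, is the lowest point of all 10 genes, and the other 5 points of a gene lie close together.

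The order of the levels was stable at its top and loose below. On the log2 scale of CPM, hba3.L exceeded hba4.S by 0.16 ± 0.09 (SD, n = 6) and did so in 6 of 6 samples. The step from hba4.S to hbd.S was 0.88 ± 0.13, and their ranges did not overlap. The step from hbd.S to LOC108701509 was 0.23 ± 0.10 and that from LOC108701509 to LOC108703099 was 0.59 ± 0.24. From LOC108703099 through hba2.L and LOC108702418 to LOC108701506, and between LOC108703098 and hbe1.L, neighbours differed by less than the SD of their ratio over the 6 samples. A longer gene can collect more counts, so levels were also taken per kb of the gene's span, introns included, because transcript lengths were not used here. On that scale hba3.L had 48.7 CPM per kb, hba4.S 45.9 and hbd.S 42.5, the beta-2 genes LOC108702418 and LOC108701506 moved up to 37.6 and 36.8, and hbe1.L remained last with 21.3.

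Genes of a family can share reads, and the way these were divided limits what a single gene can show. RSEM, the program that estimated the counts, divides a read that fits several genes in proportion, which leaves counts that are not whole. Of 60 member values, 16 (26.7%) were whole within 0.005, against 57.5% of all values above 0 in the table. In hbd.S and hbe1.L all 6 values were whole, while in hba3.L, hba4.S, LOC108701509, LOC108703099, LOC108702418 and LOC108703098 none was. The values of these last genes are therefore less certain, and how reads were shared between genes was not tested.

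Summed over the 10 members, globin transcripts made up 869, 827 and 495 CPM in 0.1X MMR, against 844, 871 and 814 CPM in 0.75X MMR. Samples 1 and 2 of 0.1X MMR thus lay within the range of 0.75X MMR, and sample 3 stood far below all others at 58.7% of their median. The means were 730 ± 205 CPM in 0.1X MMR and 843 ± 28.4 CPM in 0.75X MMR (SD, n = 3 each). Without sample 3 the mean in 0.1X MMR was 848 CPM. Over all 17 genes the sums were 955, 924 and 556 CPM in 0.1X MMR, against 948, 969 and 908 CPM in 0.75X MMR, with the same pool lowest.

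The low value of that pool was shared by both chains and both chromosomes. The 6 alpha-type members summed to 609, 592 and 359 CPM in 0.1X MMR, against 615, 629 and 594 CPM in 0.75X MMR. The 4 beta-type members summed to 260, 235 and 137 CPM in 0.1X MMR, against 228, 242 and 220 CPM in 0.75X MMR. In 0.1X MMR sample 3 the alpha sum was 58.9% and the beta sum 58.2% of the median of the other 5 samples, and the sums of the L and the S members were 56.3% and 59.9%.

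The composition of the globin pool moved far less than its size. The alpha to beta ratio of summed CPM was 2.35, 2.52 and 2.62 in 0.1X MMR, against 2.69, 2.59 and 2.70 in 0.75X MMR, with means of 2.49 ± 0.14 and 2.66 ± 0.06, and the media overlapped. The L to S ratio was 0.982, 0.957 and 0.958 in 0.1X MMR, against 1.07, 1.00 and 1.03 in 0.75X MMR. These values did not overlap between media for the 10 members, but over all 17 genes they did, so the separation depended on which genes were summed. The share of hba3.L in the sum was 23.6 ± 0.98% and that of hba4.S was 21.1 ± 0.98% (SD, n = 6), while hbd.S held 11.5 ± 0.64% and hbe1.L 4.86 ± 0.48%. In 0.1X MMR sample 3 the shares of 9 members lay within the range of the other samples, and that of hba2.L was the lowest of the 6 at 5.29%.

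**Figure D3:**
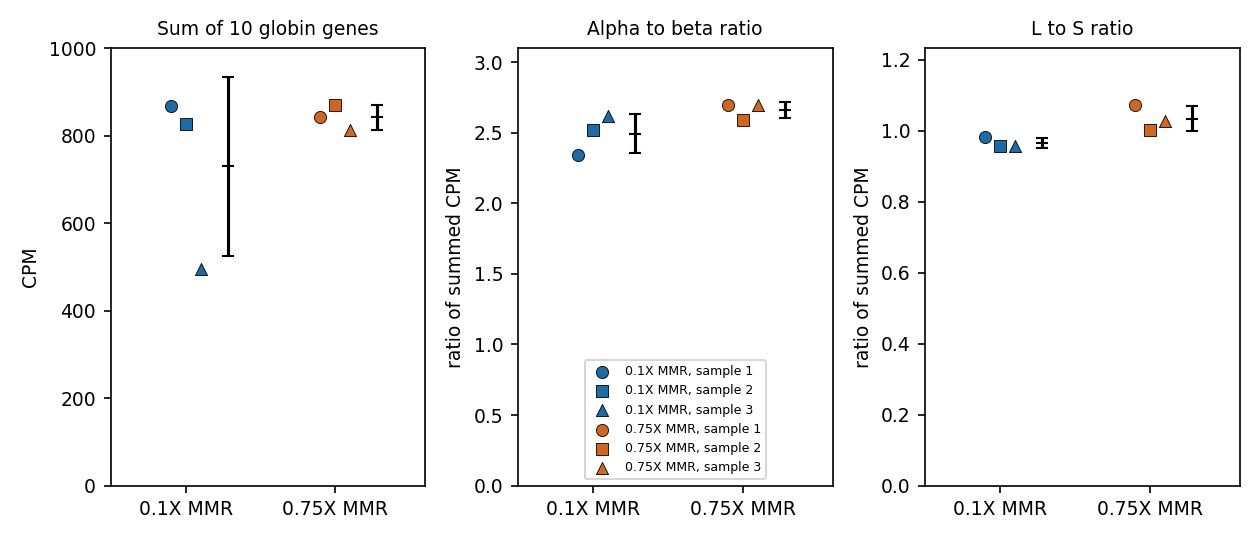
Summed CPM of the 10 members (left), their alpha to beta ratio (middle) and their L to S ratio (right) in each sample, with the mean and SD of the 3 samples of a medium beside them as bars. The sum was 495 CPM in 0.1X MMR sample 3 and 814 to 871 CPM in the others, and the alpha to beta ratio of that sample, 2.62, was within the range of the others.

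Set against other genes, the spread of the globins over the pools of 0.1X MMR was wide. The coefficient of variation (CV, the SD over the 3 pools as a percent of their mean) of the members had a median of 30.2% (25.0 to 32.5%) in 0.1X MMR and 7.72% (1.23 to 14.7%) in 0.75X MMR. It was higher in 0.1X MMR in 10 of 10 members, while 50.5% of all tested genes had a higher CV there. The 5219 tested genes with a mean CPM in the range of the members had medians of 6.86% and 6.37%, and 1.05% of them reached the lowest CV of the members in 0.1X MMR. Over the 5 samples other than 0.1X MMR sample 3 the median CV of the members was 7.68%, near the 7.20% of those genes. The width of the spread in 0.1X MMR was thus that of a single pool.

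That pool was compared with the others gene by gene, among 16535 genes whose mean count reached 50. It was the lowest of the 6 samples in 10 of 10 members, and in 18.6% of all these genes. The members lay below the median of the other 5 samples by a median log2 of -0.78 (-0.95 to -0.64), against -0.01 for all genes. All 10 were more than 0.5 below on the log2 scale, as were 1.51% of all genes. The comparison was made because the low values had been seen, and it is a description without a test. The largest difference among the members was that of hba2.L (-0.95) and the smallest that of LOC108703099 (-0.64). In the other samples the median of the members was between -0.03 and 0.14 and no member was more than 0.5 away from the median of the remaining samples.

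Of the 7 hemoglobin genes ranked 11 to 17, some had the same low pool and 3 were not lowest in it. Counting them with the 10 members, 14 of 17 were lowest in 0.1X MMR sample 3, against 18.9% of all tested genes. With the members, 13 of 17 were more than 0.5 below the median of the others, against 9.31% of all tested genes. Outside the members these were LOC108702026 (-1.01), LOC108703094 (-0.59) and hbg2.L (-1.96, at 3.29 counts and so near the floor). The beta-2-like gene LOC108702026 was at 32.8, 43.3 and 18.5 CPM in 0.1X MMR, against 38.3, 34.6 and 37.2 CPM in 0.75X MMR. The uncharacterized gene XB5745823.L, which lies among the beta-type genes of 9_10L, was at 33.5, 33.0 and 18.7 CPM in 0.1X MMR, against 28.3, 30.9 and 35.2 CPM in 0.75X MMR. Both therefore had the profile of the members. Of the 3 genes that were not lowest there, LOC108702419 and LOC108701877, at a few CPM, differed by -0.46 and -0.50. The other was the beta-2 gene LOC108702417, next to LOC108702418 on 9_10S, which differed by -0.14 and was at 21.9, 19.4 and 19.9 CPM in 0.1X MMR, against 30.4, 30.2 and 21.9 CPM in 0.75X MMR. None of its counts was whole, so its values are less certain. The alpha-5-like gene LOC108702420 was lowest in that pool but by -0.44, short of the limit. These genes were picked after their values were seen.

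Genes beside the clusters, or between their beta-type and alpha-type blocks, did not have the low pool as a group. The 14 of them read here, called flanking genes, were picked by hand, and gby.L (globin Y) is their sole globin. They had a median of -0.02 in 0.1X MMR sample 3 against the other 5 samples. In that sample 2 of these 14 genes were lowest, against 18.9% of all tested genes. Among them nprl3.L, which in mammals holds the main enhancers of the alpha-globin genes in its introns, was at 25.1, 25.9 and 28.5 CPM in 0.1X MMR, against 25.0, 23.3 and 26.9 CPM in 0.75X MMR. The gene polr3k.S, an RNA polymerase III subunit, was the only flanking gene more than 0.5 below the other samples (-0.75), at a level of 1.79 CPM.

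Red cells also need transcription factors, heme and iron, and the sums of these gene lists lay closer to the other samples in that pool than the globins did. Of 79 tested genes in 7 lists of red cell function, 21 (26.6%) were lowest in 0.1X MMR sample 3, against 18.9% of all tested genes. In that sample 9 of the 79 were more than 0.5 below the median of the others, against 9.31% of all tested genes. Each of these 9 was sparse, with a mean count under 50, the highest being epor.L with 37.7. Among all genes whose mean count reached 50, only 1.51% were that low. The 9.31% thus mixes sparse and abundant genes, and the share for sparse genes alone was not counted. The median difference of the 79 was -0.07. The summed level of a list in that sample was 91.0% of the median of the others for the transcription factors, 96.6% for heme synthesis and 99.7% for the red cell membrane, in contrast to 58.7% for the globins. The sum of the transcription factors, 279 CPM, was nevertheless the lowest of the 6 samples (286 to 313 CPM in the others). These lists include genes that other tissues use, and their most abundant genes dominate the sums.

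Some less abundant genes within these lists did have lower values in that sample, and others did not. Which cells of the embryo expressed them was not tested. Of the transcription factors, 4 of 16 were more than 0.5 below there, namely gata1.L and gata1.S, which encode the main factor of red cell development, tal1.L, a blood stem cell factor, and nfe2.L, a factor of globin and platelet genes. For gata1.L the levels were 2.27, 2.26 and 1.59 CPM in 0.1X MMR, against 4.66, 3.71 and 2.82 CPM in 0.75X MMR. For tal1.L they were 4.54, 5.66 and 2.79 CPM in 0.1X MMR, against 4.83, 5.12 and 3.99 CPM in 0.75X MMR. Both were lowest in sample 3 of 0.1X MMR, at levels of a few CPM, where counting error is larger. In gata1.L, gata1.S and nfe2.L all samples of 0.75X MMR lay above all of 0.1X MMR, as in 5.77% of all tested genes. Their difference from the median of the other samples thus includes a difference between media. For nfe2.L the levels were 0.852, 1.62 and 0.796 CPM in 0.1X MMR, against 1.83, 2.47 and 1.83 CPM in 0.75X MMR, so samples 1 and 3 of 0.1X MMR were alike. The same list held genes in the other direction, since nfe2.S was highest of the 6 samples there (0.36) and lmo2.L, a partner of tal1, differed by 0.44. In that list gfi1b.L differed by -0.08. The red cell enzyme of the first step of heme synthesis, alas2.S, was at 4.84, 5.33 and 1.99 CPM in 0.1X MMR, against 3.66, 6.89 and 4.67 CPM in 0.75X MMR. Its homeolog alas2.L was at 22.5 CPM in that sample, between the 24.4 and 21.5 CPM of the other pools of 0.1X MMR, and did not have the low value. The membrane skeleton gene epb42.L was at 4.97, 2.59 and 1.39 CPM in 0.1X MMR, against 4.99, 5.65 and 3.65 CPM in 0.75X MMR. The anion exchanger gene slc4a1.L was at 24.9 CPM in the same pool and at 29.9 CPM or more in the others. It differed by -0.49 on the log2 scale from their median, whereas its homeolog slc4a1.S differed by -0.07. Other genes of the membrane list, gypc.L, tmod1.L and add2.L, were highest of the samples in that pool (0.17, 0.20 and 0.21). There rhag.L differed by -0.18, and the median of the membrane list was -0.03. These genes were named after their values were seen.

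The most abundant genes of the lists gave no such picture. Among the transcription factors ldb1.L, ldb1.S and bcl11a.L differed from the other samples by -0.10, -0.07 and -0.04 in 0.1X MMR sample 3. In heme synthesis alas1.S, the general form of the first enzyme, differed by 0.17, hmbs.L by -0.40 and cpox.L by -0.03. Of these hmbs.L was the lowest, short of the limit of 0.5. In iron handling fth1.1.S, a ferritin heavy chain, differed by 0.11, the iron exporter slc40a1.S by -0.07 and the iron-responsive aconitase aco1.L by 0.08. For mitochondrial transport slc25a28.L differed by -0.02 and tmem14c.L by -0.13. The membrane skeleton genes sptb.L, epb41.L and ank1.L differed by 0.09, -0.01 and 0.10, so that spectrin and ankyrin were not low. Of heme breakdown, hmox1.L, blvrb.L and hmox1.S differed by 0.18, 0.06 and 0.02, and of erythropoietin signalling stat5b.L, jak2.L and kit.L by -0.19, 0.01 and 0.26. The less abundant erythropoietin receptor epor.L differed by -0.63. Its lowest pool was 0.1X MMR sample 2 at 4.20 CPM, against 4.58 CPM in sample 3. Other globins outside red cell hemoglobin, cygb.L, cygb.S and gby.L, differed by -0.04, 0.15 and -0.03.

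Markers of other cells in the embryo were read in the same way. The sum of the myeloid list in 0.1X MMR sample 3 was 82.0% of the median of the others (279 CPM, against 271 to 414 CPM). There 5 of its 13 tested genes were more than 0.5 below, against 9.31% of all tested genes, sparse and abundant together. Of these 5, mpo.S was at 24.5 CPM and spi1.S and spib.S at under 3 CPM in that sample. The others, cebpe.L and cebpe.S, were at 0.398 CPM each there, under the floor of 0.597 CPM of that library. In 0.1X MMR sample 1 cebpe.L was at 0.426 CPM, so it was low in that pool also. The sum of the endothelial list was 92.7% and that of the heart list 98.3%. Thrombocyte and skeletal muscle lists stood at 115% each, and epidermis, neural tissue, and liver and gut at 102%, 98.7% and 96.8%. In the thrombocyte sum of 231 CPM, itga2b.2.L, gp1bb.L, gp1bb.S and gp9.L were at 4.18, 1.79, 2.39 and 0.199 CPM. Most of that sum came from other genes of the list, such as thbs1.L at 42.8 CPM. Of the sparse genes, itga2b.2.L was the lowest of the samples there (-0.35) and gp1bb.S the highest (1.17). The myeloid sum was lowest in a pool of 0.75X MMR, and so its value in 0.1X MMR sample 3 was within the range of the other samples. The part of cell makeup, and of the lower depth of that library, in the low globin values was not tested.

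**Figure D4:**
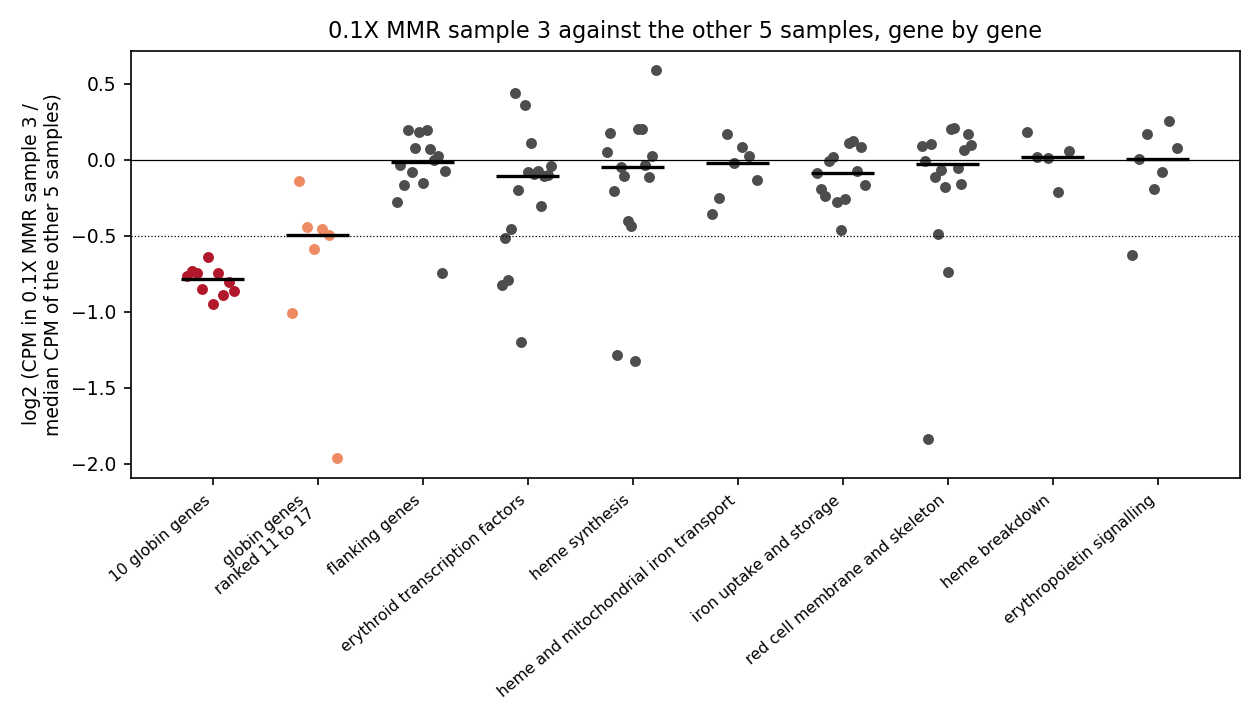
Difference of 0.1X MMR sample 3 from the median of the other 5 samples (log2 of CPM, y axis), with a point per gene and a line at the median of each group of genes. The 10 globin members, between -0.95 and -0.64, all lie under the dotted line at -0.5, and the medians of the flanking genes and of the red cell lists lie near 0.

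The question the study put to these samples was whether the saltier medium changes gene expression of embryos. None of the 10 members passed the test for a difference between media: edgeR's quasi-likelihood test called 0 of 10 at a false discovery rate (FDR) under 0.05, where 0.0178% of all tested genes were called (5 of 28075). At an unadjusted p under 0.05 it also gave 0 of 10, against 4.39% of all genes in either direction and 2.14% with more in 0.75X MMR, and DESeq2 and limma-voom called 0 of 10 as well. The largest changes were those of hba2.L, with a log2 fold change of 0.33 (SE 0.17, unadjusted p = 0.075, adjusted p = 1.00 by edgeR), and of hba3.L, with 0.26 (SE 0.14, unadjusted p = 0.084, adjusted p = 1.00 by edgeR). Of the members, 9 of 10 had a value above 0, as did 49.6% of all genes, and the median was 0.19 (-0.02 to 0.33) against -0.00 for all genes. The members share their low pool, so these 9 are not separate evidence.

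The same test without 0.1X MMR sample 3 gave values on both sides of 0. Then 4 of 10 members were above 0, against 49.2% of all genes, and 6 were below, with a median of -0.03 (-0.22 to 0.10). No member had an unadjusted p under 0.05. For hba3.L the log2 fold change moved from 0.26 to 0.07, and for hbd.S it moved from 0.05 to -0.18. The sum of the members was higher in 0.75X MMR by a log2 ratio of means of 0.21 with all samples and differed by -0.01 without that pool. The positive median of the members and their higher sum in 0.75X MMR therefore rested on 1 pool of 10 embryos. The 4 members that stayed above 0 without it were hba2.L (0.10), hba3.L (0.07), LOC108701506 (0.04) and hba4.S (0.03).

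The intervals show what size of change these samples leave. By limma-voom, the 95% confidence intervals of the log2 fold change lay within -0.37 to 0.75 for all 10 members. For hba3.L the interval was -0.01 to 0.58, for hba4.S -0.07 to 0.55 and for hbd.S -0.27 to 0.46. Only hba3.L had samples that did not overlap between media, 1 of 10 members, against 9.84% of all tested genes in either direction and 5.77% with 0.75X MMR above. The biological CV that edgeR fitted to the members had a median of 14.2%, against 9.33% for all tested genes.

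**Figure D5:**
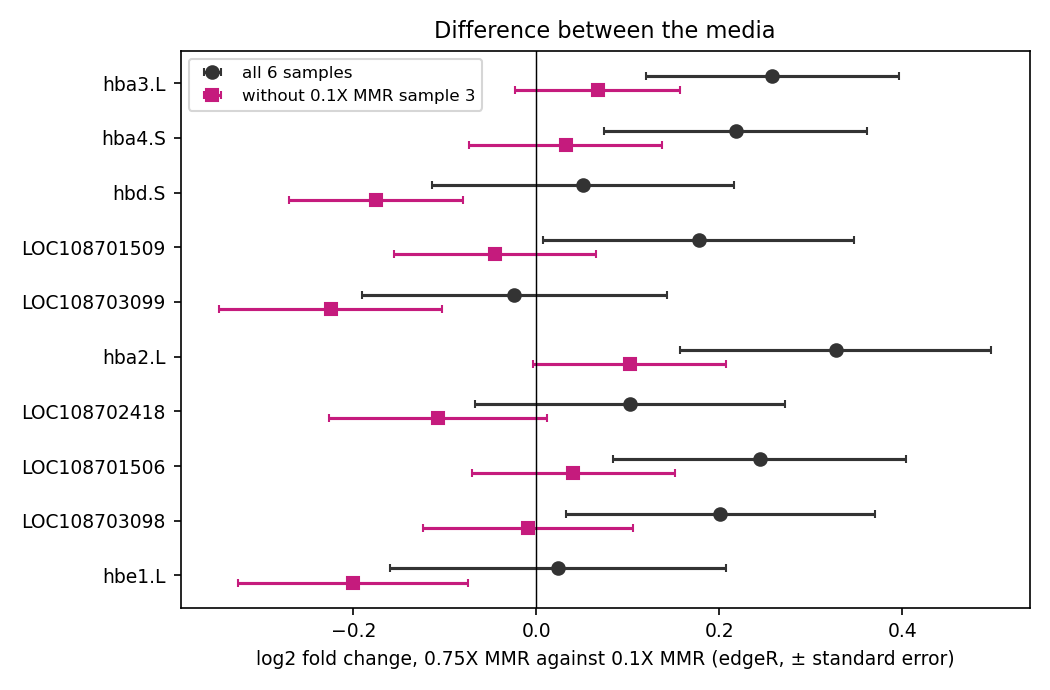
Fitted log2 fold change of each member, 0.75X MMR against 0.1X MMR (x axis), with its standard error, for all 6 samples and without 0.1X MMR sample 3. With all samples the values run from -0.02 to 0.33, and without that pool from -0.22 to 0.10, on both sides of 0.

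Some lower genes of the clusters had larger log2 fold changes than the members but did not pass the test either. Of the 7 genes ranked 11 to 17, 6 had a value above 0, as did 49.6% of all tested genes. LOC108702417, the beta-2 gene without the low pool, had a log2 fold change of 0.41 (SE 0.14, unadjusted p = 0.00989, adjusted p = 1.00 by edgeR). Neither it nor its neighbour LOC108702418, which has the same product description, had a whole count. How reads were shared between these genes was not tested. The larval alpha gene hba-l5.L, which the product text of the rule did not match, was at 1.65, 0.81 and 1.40 CPM in 0.1X MMR, against 2.85, 1.95 and 2.59 CPM in 0.75X MMR. Its samples did not overlap, with a log2 fold change of 0.89 (SE 0.38, unadjusted p = 0.036, adjusted p = 1.00 by edgeR). LOC108702420 and LOC108702419, at mean levels of 13.2 and 3.35 CPM, also had samples that did not overlap, with more in 0.75X MMR. Their log2 fold changes were 0.23 and 0.51, the first below that of hba2.L. Of all tested genes, 5.77% had samples that did not overlap with 0.75X MMR above. LOC108701877 had a value of 0.82, but its media overlapped. The genes of this paragraph were named with their values known.

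Of the 79 genes in the red cell lists, 0 passed the FDR limit by edgeR, while 44 had a value above 0 and 35 below. At an unadjusted p under 0.05 there were 4 of 79, against 4.39% of all tested genes, of which 3 were higher in 0.75X MMR, against 2.14% of all, and 1 was lower. These shares are near those of all genes. The higher ones were gata1.L (log2 fold change 0.82), the iron reductase steap3.L (0.34) and alas2.L (0.22), and the lower one was alas1.L (-0.37). By list, 11 of 16 transcription factors and 11 of 15 heme synthesis genes had values above 0, with medians of 0.07 and 0.12. Without 0.1X MMR sample 3 these medians were 0.04 and 0.01. The 5 genes of heme breakdown all had values below 0, with a median of -0.05, and the 13 of iron uptake and storage divided into 8 above and 5 below.

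Across the 6 samples the members varied together. The 45 pairs of members had Pearson correlations of log2 CPM between 0.72 and 0.99 with a median of 0.91, as a description over 6 samples that differ in depth. Over the 5 samples without 0.1X MMR sample 3 the same pairs ranged from -0.94 to 0.82 with a median of -0.01, and 23 of 45 were negative. The likeness of the members thus lay in that pool.

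Genes with a profile most like the summed globins were sought among 16518 genes outside the members. The highest correlations over 6 samples were those of sgo1.L (0.985), a protector of chromosome cohesion, sh3rf2.S (0.985), arhgap26.L (0.981), atxn1.L (0.977) and ano10.L (0.974). All 5 were lowest in 0.1X MMR sample 3, at 68.2%, 80.4%, 72.3%, 73.7% and 82.0% of the median of the others; the summed globins were at 58.7%. Without that pool the correlations were 0.66, 0.13, 0.19, 0.39 and -0.63.

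The authors also deposited log2 CPM values that they had adjusted for surrogate variables, which are patterns of unwanted variation estimated from the data. In these, 0.1X MMR sample 3 was again lowest in 10 of 10 members, by a median of -0.49 against the other samples. The difference between media had a median of 0.23 (-0.00 to 0.38), and 9 of 10 members were higher in 0.75X MMR. The members share their low pool, so these 9 are not separate evidence. The share of all genes higher in 0.75X MMR after adjustment was not counted. No member had samples that did not overlap with 0.75X MMR above, against 12.7% of all genes in that table. The adjusted values put sample 1 highest and sample 3 lowest in both media in 10 of 10 members, whereas in the unadjusted CPM this held for 7 of 10 in 0.1X MMR and for 2 of 10 in 0.75X MMR. The order was not particular to the members. Adjusted values of kctd18.L and cygb.L had it in both media, and those of luc7l.S and nprl3.L had the reverse order in both. These genes were picked with their values known. How many of all genes had this order, or the same lowest pool, after adjustment was not counted.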

How the data were processed

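RNA of 6 pools of stage 35 embryos was sequenced with single-end reads of 75 nucleotides after depletion of ribosomal RNA with a Ribo-Zero Plus kit. Probes of that kit also target mammalian globin RNA, and their effect on the levels of the frog globins was not tested. The authors trimmed reads with fastp, aligned them with STAR to genome version 10.1 and deposited expected counts per gene from RSEM, not normalized. They also deposited log2 CPM values, made with TMM factors and voom and then corrected with surrogate variables. Names and positions came from RefSeq entries of the same version. All columns matched a sample, leaving 0 columns without a sample.

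Counts were rounded for the tests, and 28075 of 42638 genes entered the test because 3 or more samples exceeded 0.6 CPM, with all 10 members among them. The main test was edgeR 4.0.16 (R 4.3.3) by quasi-likelihood with TMM and a term for medium alone, where p-values of all 28075 genes were adjusted together by Benjamini-Hochberg and the FDR limit was 0.05. Intervals came from limma-voom (limma 3.58.1). DESeq2 1.42.0, limma-voom with 2 surrogate variables (sva 3.50.0), other size factors, no filter, a replicate block, summed homeologs and leaving out each sample were tried as alternatives. So were library totals and TMM factors taken without the globin genes, whose own counts stayed in the test. CPM in the text were scaled to the total of the deposited counts, without TMM factors. The edgeR and limma steps were tested on simulated data. The simulated samples had no shared low pool, and the planted changes were all larger than those fitted for the members. How well changes of the members' size are found was therefore not tested.

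The genes named are the 10 members, the 3 most abundant genes of each list of red cell function (of which 1 is not reported here), the 5 genes most like the summed globins, and the hemoglobin genes beside the limit. Others were named after their values were seen, as the text says. The members, lists and tests were chosen with earlier results of these data known. No p is given for sums or ratios over the members for that reason. Depth, the total of counts assigned to genes, was between 5024957 and 7045215 per sample. It sets a floor of 3 counts at 0.426 to 0.597 CPM, which covers counting error only.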

Additional observations from a re-analysis of the deposited data

How the results depend on the processing

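In all alternatives 0 of 10 members passed the FDR limit, with the lowest adjusted p at 0.977 with all samples and 0.924 with a sample left out. With all samples in the fit, 75 of 80 log2 fold changes kept their direction. Summed homeologs, among these settings, joined only genes with the same name on L and S, which members with a LOC number lack. That setting gave 0.257 for hba3.L, against 0.258 in the main test, and 0.327 for hba2.L in both, so it is hardly a separate check of the members. With 2 surrogate variables the values of hbd.S, LOC108702418 and hbe1.L turned to -0.011, -0.019 and -0.047. For LOC108703099 limma-voom without surrogate variables and the replicate block gave 0.0062 and 0.0078. With a sample left out, 50 of 60 kept their direction. Their ranges were -0.18 to 0.22 for hbd.S, -0.045 to 0.40 for LOC108701509, -0.22 to 0.18 for LOC108703099, -0.11 to 0.29 for LOC108702418, -0.0091 to 0.35 for LOC108703098 and -0.20 to 0.19 for hbe1.L, each lowest without 0.1X MMR sample 3. The cause was not tested. With a sample left out, the median CV of the members in 0.1X MMR was between 5.87% (without sample 3) and 42.2% (without sample 2). In 0.75X MMR it was then between 4.23% (without sample 3) and 7.59%, against 7.72% with all samples. With TMM factors and all samples the medians were 30.0% in 0.1X MMR and 8.48% in 0.75X MMR.

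No sign of pairing by sample number was seen. Correlations of deviations between same-numbered samples were -0.030, -0.029 and -0.088, and those between samples of other numbers ran from -0.033 to 0.062. With 3 samples per medium these values cannot decide how the numbered samples relate. With the replicate block the median log2 fold change of the members was 0.23, 3 of 10 had an unadjusted p under 0.05 (995 of 28075 of all genes), none passed the FDR limit, and 2 genes in all did. Without 0.1X MMR sample 1, 5 of 10 had an unadjusted p under 0.05 by edgeR (1180 of 27730 of all genes). Without 0.1X MMR sample 2 there were 2 of 10 (1396 of 27663 of all genes). Without the filter on low counts there were also 2 of 10 (1559 of 35640 of all genes). Over all genes the calls were 5 by edgeR, 13 by DESeq2, 16 by limma-voom with surrogate variables and 34 without a filter. Single genes whose counts are not whole are less certain.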
